A study of Mus musculus with 6 samples.

Results

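Transcripts of 6 enzymes were followed through CD8+ T cells cultured with or without a blocker of vitamin B6-dependent enzymes: Glud1, Glul, Gpt2, Oat, Aldh18a1 and Pycr1. They were chosen by symbol as enzymes of glutamate, glutamine and proline metabolism, and all 6 were found among the 11922 genes of the deposited count table. Splenic CD8+ T cells of C57BL6/J mice were activated with anti-CD3/anti-CD28 Dynabeads and kept for 7 days in complete RPMI with recombinant human IL-2 at 100 units/ml. Vehicle cultures received water and AOA cultures received 0.25 mM AOA (aminooxyacetic acid) throughout, and both had the beads for the first 72 hours only. Each of 3 donor mice supplied one culture of either kind, which gave 3 libraries per group, and replicate numbers are those of the mice. The comparison asks how the RNA of these enzymes differed when the activity of PLP-dependent enzymes was blocked, PLP (pyridoxal 5'-phosphate) being the active form of vitamin B6. These are bulk cultures sampled once, in which fewer cells of a type and less RNA per cell cannot be told apart, and RNA says nothing of enzyme activity.

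Activated T cells take up glutamine in large amounts, hydrolyse it to glutamate and pass the glutamate on in several directions. Glutamate dehydrogenase (Glud1) removes its nitrogen as ammonia, and transaminases such as the mitochondrial alanine transaminase Gpt2 move that nitrogen to a keto acid, and both leave 2-oxoglutarate for the citrate cycle. Glutamine synthetase (Glul) runs the other way and adds ammonia to glutamate. Proline is made from glutamate through pyrroline-5-carboxylate (P5C), which Aldh18a1 (P5C synthase) makes and the P5C reductases, Pycr1 among them, reduce. Ornithine aminotransferase (Oat) joins ornithine to the same P5C pool. Gpt2 and Oat carry PLP, and AOA reacts with that cofactor, whereas the other enzymes do not need it.

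Total counts per library lay between 12881962 and 21997078. Counts were scaled by the TMM method of edgeR and are given as CPM (counts of a gene relative to the scaled library size), or as RPKM (CPM per kilobase of the deposited gene length) where genes are compared with each other. A gene is called changed when its adjusted p in edgeR's quasi-likelihood test, fitted over the 11759 genes that passed a low-count filter, was under 0.05. By this rule 53.0% of all tested genes were called, 26.2% higher and 26.8% lower with AOA, so a single call is not unusual in these libraries. Within a group the libraries did not stand equally close. Chi-square per gene was 55.9 and 60.3 between vehicle replicate 2 and the other vehicle libraries but 10.2 between those. It was 72.3 and 65.7 between AOA replicate 1 and the other AOA libraries but 10.7 between those. Values without each of both libraries are therefore given below for the 6 enzymes. Of 6 CD8 T cell markers tested, Cd8a and Cd8b1 had at least 654 and 779 CPM in every library and were called higher with AOA (2.05-fold and 1.56-fold), while Cd3d, Cd3e, Cd3g and Cd247 were not called (log2 fold changes of -0.31 to -0.13). The summed CPM of 10 proliferation markers was 800.5 to 1014 with vehicle and 5220 to 6063 with AOA, that of 4 CD4 T cell markers was 158 to 210.5 and 33.0 to 54.3, and 4 myeloid markers had 55.5 to 67.5 with vehicle and 4.18 to 7.82 with AOA. Of the CD4 T cell markers Cd4, Zbtb7b and Cd40lg were called lower, while Foxp3 was not called (log2 fold change 0.36, higher with AOA in 3 of 3 mice). The summed CPM of 4 B cell markers was 12.6 to 16.6 with vehicle and 22.6 to 30.7 with AOA, with Cd79b called higher (2.02-fold) and Ms4a1 and Cd79a not called. Of the myeloid markers Itgam and Cd68 were called lower (log2 fold changes of -5.25 and -1.91), whereas Cd14, with 0 to 16 counts, and Lyz2, with 0 to 5 counts with vehicle and 2 to 22 with AOA, were too low to be tested. The part of these differences in the results below was not tested.

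Of the 6 enzymes 2 rose with AOA, Oat and Glul, and 1 fell, Pycr1. Aldh18a1, Glud1 and Gpt2 were not called. All 6 passed the low-count filter. A share of 3 called in 6 lies near the background of 53.0%. Of the PLP enzymes Oat rose, while Gpt2 had a log2 fold change below 0 that was not called. The AOA values lay above all vehicle values for 3 of the enzymes and below them for 2, which was so for 31.0% and 31.1% of all tested genes. With the mouse as a replicate block the same 3 enzymes were called, 2 higher and 1 lower, beside 53.5% of all tested genes, 26.6% higher and 26.9% lower. Their median log2 fold change was 0.21, beside -0.02 for all tested genes.

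**Figure D1:**
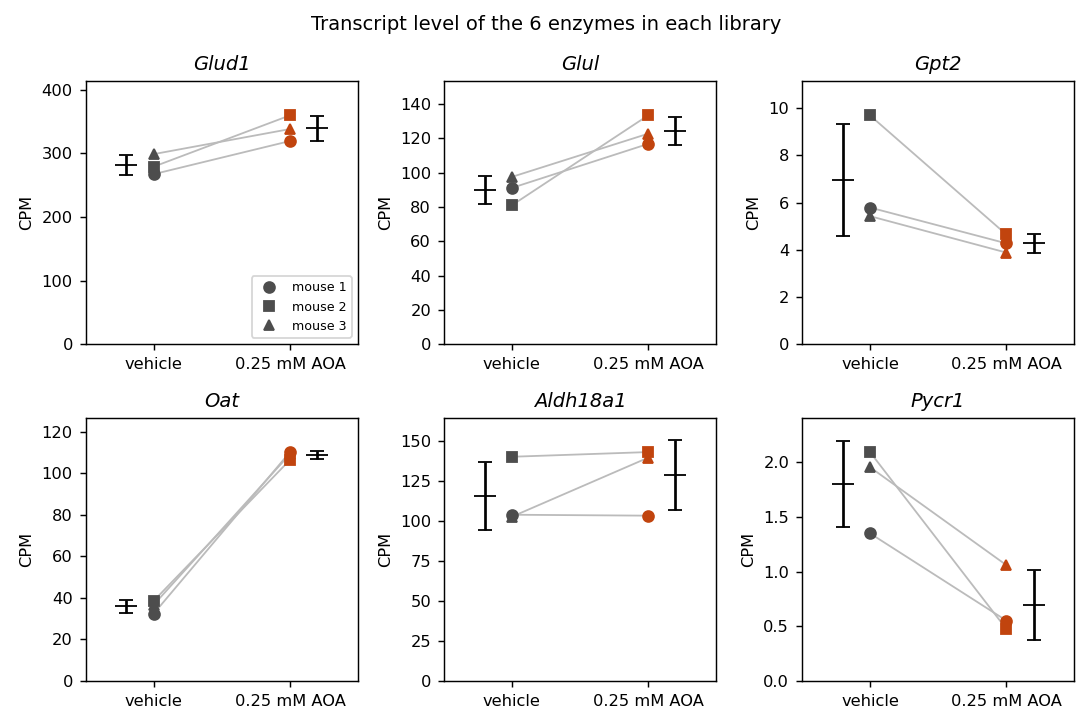
Transcript level in CPM (vertical axes, each from 0) of the 6 enzymes in vehicle and AOA libraries, with symbols for the 3 mice, grey lines joining the cultures of a mouse, and bars for mean and SD (n = 3). Oat separates the groups most widely, from 32.4 to 38.5 CPM against 106 to 110.2 CPM, while the Aldh18a1 values overlap.

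Oat (Entrez gene 18242), on the minus strand of chromosome 7 from 132557475 to 132576398 in the RefSeq annotation of GRCm38.p6, showed the clearest difference. It encodes the mitochondrial aminotransferase that converts ornithine and 2-oxoglutarate into glutamate and P5C. Its level was 32.4, 38.5 and 36.6 CPM in vehicle replicates 1, 2 and 3, and 110.2, 106 and 109 CPM in AOA replicates 1, 2 and 3. The groups were far apart and the 3 AOA cultures nearly alike. The means were 35.9 ± 3.16 CPM (SD, n = 3) and 109 ± 1.95 CPM (SD, n = 3), a log2 fold change of 1.60 (standard error 0.13) or 3.03-fold, with a 95% interval of 2.49 to 3.69 (adjusted p = 2.52e-05 by edgeR). With each library left out the log2 fold change stayed between 1.55 and 1.69, and it was 1.69 without vehicle replicate 2 and 1.59 without AOA replicate 1. All 10 proliferation markers were called higher in the same libraries, with a median log2 fold change of 2.86.

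The Oat promoter is shown because Oat is the enzyme whose RNA rose most, and that of Pycr1 because it is the enzyme whose RNA fell. Both are RefSeq sequences of GRCm38.p6 read 5′ to 3′ along the gene, from 250 bases before to 50 after the start site. The Oat window is chr7:132576349-132576648 on the minus strand, with 2 CCAAT boxes in capitals, one of them read on the opposite strand as ATTGG. The Pycr1 window is chr11:120643699-120643998 on the minus strand, with a match to TGATGNAAT in capitals, a form of the element bound by C/EBP and ATF4 factors.
Oat: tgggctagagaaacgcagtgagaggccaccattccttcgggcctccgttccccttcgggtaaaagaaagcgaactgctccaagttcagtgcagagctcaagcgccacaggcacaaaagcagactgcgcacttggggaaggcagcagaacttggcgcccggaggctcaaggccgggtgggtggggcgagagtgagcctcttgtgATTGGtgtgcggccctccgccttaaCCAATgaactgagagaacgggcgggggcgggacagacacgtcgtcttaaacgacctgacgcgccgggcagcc
Pycr1: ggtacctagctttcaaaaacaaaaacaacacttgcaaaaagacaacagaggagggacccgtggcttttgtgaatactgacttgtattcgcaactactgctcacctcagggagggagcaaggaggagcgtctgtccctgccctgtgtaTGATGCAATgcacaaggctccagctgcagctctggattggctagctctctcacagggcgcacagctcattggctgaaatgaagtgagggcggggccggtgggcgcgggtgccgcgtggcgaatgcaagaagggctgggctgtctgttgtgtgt
Both strands were searched for TGATGNAAT, CACGTG and CCAAT, motifs that do not overlap one another here and that were chosen after the sequences had been seen. TGATGNAAT was found once among the 6 enzymes, in Pycr1, with its first base 103 bases before the start site, and in 0.965% of 32841 RefSeq promoters of the same length. Of the 15 genes of the ATF4 list described further on, 1 (Nupr1) held it in this window. CACGTG, the E-box read by MYC and other factors, was found once, in Aldh18a1, and in 7.15% of all promoters. CCAAT was found 2 times each in Oat, Glul and Pycr1 and in 37.4% of all promoters. These are matches of letters, and binding was not measured.

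Pycr1 (Entrez gene 209027), on the minus strand of chromosome 11 from 120638998 to 120643748, was scarcely expressed and fell further. It encodes a mitochondrial reductase for the last step of proline synthesis. It had 17, 33 and 36 counts in vehicle replicates 1, 2 and 3, and 12, 9 and 21 counts in AOA replicates 1, 2 and 3. In CPM this was 1.35, 2.09 and 1.95 against 0.552, 0.476 and 1.06. Every AOA value lay below every vehicle value, although AOA replicate 3 came close to vehicle replicate 1. On the log2 scale the difference was -1.37 with a standard error of 0.41 (adjusted p = 0.0187 by edgeR), a level 0.387 times that of vehicle, with a 95% interval of 0.204 to 0.731. The call did not hold without vehicle replicate 3, AOA replicate 1 or AOA replicate 2 (log2 fold changes of -1.28, -1.22 and -1.16, adjusted p = 0.0614, 0.0750 and 0.0734), and it held without vehicle replicate 2 (-1.23, adjusted p = 0.0343).

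Pycrl encodes a cytosolic P5C reductase. It had 16.2, 14.3 and 15.04 CPM in vehicle replicates 1, 2 and 3, and 27.7, 24.4 and 20.6 CPM in AOA replicates 1, 2 and 3. All its AOA values lay above all its vehicle values, the opposite order to that of Pycr1. It rose by 0.68 on the log2 scale (adjusted p = 0.00714 by edgeR).

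Aldh18a1 (Entrez gene 56454), on the minus strand of chromosome 19 from 40550257 to 40588463, encodes the enzyme that commits glutamate to P5C. Its level was 104, 140.2 and 103 CPM in vehicle replicates 1, 2 and 3, and 103, 143 and 139.7 CPM in AOA replicates 1, 2 and 3. The groups overlapped, with vehicle replicate 2 among the high values and AOA replicate 1 among the low ones. The difference of 0.15 on the log2 scale, with a standard error of 0.18, was not called (adjusted p = 0.492 by edgeR), and its 95% interval ran from 0.842-fold to 1.47-fold. Without vehicle replicate 2 it was 0.35 (adjusted p = 0.0984), and without AOA replicate 1 it was 0.29 (adjusted p = 0.169). Without AOA replicate 2 it was 0.08 (adjusted p = 0.785).

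Glud1 (Entrez gene 14661) lies on the plus strand of chromosome 14 from 34310727 to 34345033 and was the most abundant of the 6 enzymes. Its level was 267, 279 and 299 CPM in vehicle replicates 1, 2 and 3, and 319, 359.5 and 338 CPM in AOA replicates 1, 2 and 3. All AOA libraries were above all vehicle libraries, by little. The log2 fold change of 0.27 (standard error 0.13, 95% interval 0.979-fold to 1.48-fold) did not pass the test (adjusted p = 0.117 by edgeR). It passed without AOA replicate 1, at 0.31 (adjusted p = 0.0455), and was 0.30 without vehicle replicate 2 (adjusted p = 0.105). A processed pseudogene, Glud-ps, is annotated on chromosome 7 in GENCODE vM21, and only uniquely mapped reads were counted, so reads matching both would be missing from the values of Glud1.

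Glul (Entrez gene 14645), on the plus strand of chromosome 1 from 153899929 to 153909723, rose moderately. It encodes the enzyme that makes glutamine from glutamate and ammonia. Its level was 91.0, 80.9 and 97.4 CPM in vehicle replicates 1, 2 and 3, and 117, 133 and 123 CPM in AOA replicates 1, 2 and 3. The groups did not overlap, as was the case for 62.1% of all tested genes. AOA cultures had 1.38-fold the vehicle level, or 0.47 on the log2 scale with a standard error of 0.13 (adjusted p = 0.0137 by edgeR), with a 95% interval of 1.13 to 1.69. Without vehicle replicate 2 it was 0.43 and without AOA replicate 1 it was 0.51 on the log2 scale, both called. The call was lost without AOA replicate 2, where the log2 fold change was 0.42 (adjusted p = 0.0560). Teddm2 shares 116 exon bases with Glul on the opposite strand in GENCODE vM21, and if strand was not used in counting, for which no setting is known here, reads of both genes cannot be told apart over that stretch. The miRNA gene Mir8114 lies within Glul on the same strand.

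Gpt2 (Entrez gene 108682), on the plus strand of chromosome 8 from 85492576 to 85528902, is the mitochondrial enzyme that moves the amino group of glutamate to pyruvate and so makes alanine. Its level was 5.79, 9.70 and 5.43 CPM in vehicle replicates 1, 2 and 3, and 4.28, 4.65 and 3.88 CPM in AOA replicates 1, 2 and 3. The groups did not overlap, but vehicle replicate 2 stood well above the other libraries. The log2 fold change of -0.71 (standard error 0.28, 95% interval -1.33 to -0.08) missed the threshold (adjusted p = 0.0566 by edgeR's quasi-likelihood test). Without vehicle replicate 2 the log2 fold change was -0.36 (adjusted p = 0.192), and without AOA replicate 1 it was -0.71 (adjusted p = 0.118). Its cytosolic sister Gpt, named after its values were seen, did not pass either (log2 fold change -0.17, 95% interval -0.76 to 0.41).

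**Figure D2:**
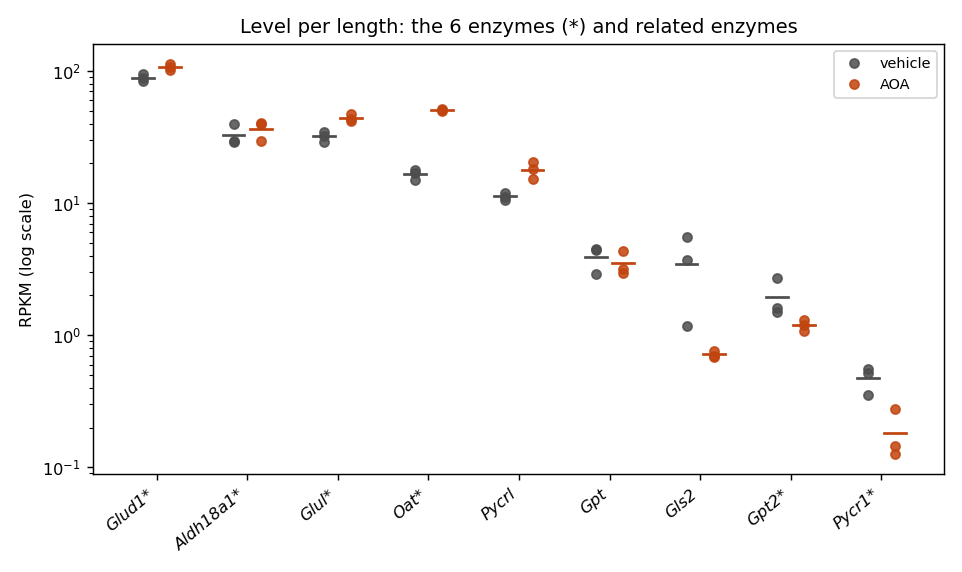
Level per length in RPKM (vertical axis, log scale) of the 6 enzymes, marked by an asterisk, and of the related enzymes Pycrl, Gpt and Gls2, with points for libraries and lines for the means of the vehicle and AOA groups (n = 3). Oat lies below Glul and Aldh18a1 with vehicle and above both with AOA, while Gpt2 and Pycr1 lie below 3 RPKM in every library.

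Compared per length, the 6 enzymes spanned a wide range and Oat changed its place in it. In vehicle libraries Glud1 had 84.6 to 94.6 RPKM, Aldh18a1 29.1 to 39.8 RPKM, Glul 28.8 to 34.7 RPKM, Oat 15.03 to 17.9 RPKM, Gpt2 1.51 to 2.70 RPKM and Pycr1 0.355 to 0.551 RPKM. Aldh18a1 and Glul were the only neighbours in this order that overlapped. In AOA libraries Oat, at 49.4 to 51.1 RPKM, stood above Glul at 41.6 to 47.5 RPKM and Aldh18a1 at 29.3 to 40.6 RPKM, and below Glud1 at 101 to 114 RPKM. Gpt2 had 1.08 to 1.29 RPKM and Pycr1 0.125 to 0.279 RPKM, and no neighbours overlapped. Among all tested genes the mean RPKM of Glud1 was above that of 93.9%, and those of Gpt2 and Pycr1 were above only 14.8% and 3.26%.

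Ratios of transcripts within a library do not depend on library scaling and place alternative routes side by side. P5C can be made from glutamate by Aldh18a1 or from ornithine by Oat, and the RPKM of Aldh18a1 over that of Oat was 1.71 to 2.22 in vehicle libraries and 0.573 to 0.822 in AOA libraries. The log2 ratio was 0.97 ± 0.19 (SD, n = 3) with vehicle and -0.48 ± 0.28 (SD, n = 3) with AOA, so both transcripts exchanged places in all 3 mice. Pycr1 over Aldh18a1, the last over the first step of proline synthesis, went from -6.12 ± 0.28 to -7.72 ± 0.60 (SD, n = 3) on the log2 scale.

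Glud1 and Gpt2 are among several enzymes that turn glutamate into 2-oxoglutarate, and Gpt2 over Glud1 went from -5.57 ± 0.48 to -6.50 ± 0.12 (SD, n = 3). The difference of -0.93 became -0.66 without vehicle replicate 2. In each of the 3 ratios the groups did not overlap, and the exact permutation test (two-sided) gave p = 0.1 for each, which is the smallest that 3 libraries against 3 allow, so none can pass 0.05.

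**Figure D3:**
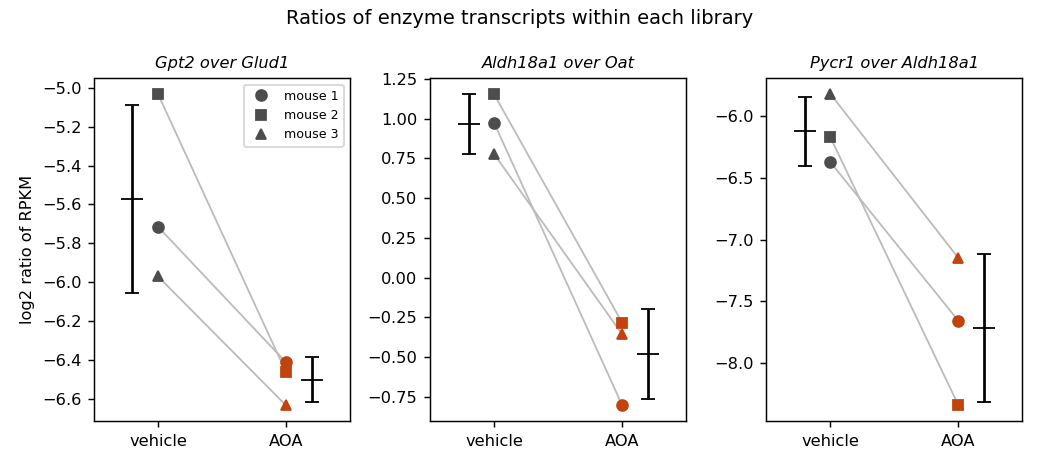
Log2 ratio of RPKM (vertical axes, each with its own range) of 3 pairs of enzymes within each library, with symbols for the 3 mice, lines joining the cultures of a mouse, and bars for mean and SD (n = 3). In every panel the 3 AOA libraries lie on one side of the 3 vehicle libraries, and Aldh18a1 over Oat crosses 0.

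The surrounding pathway was described with 6 lists, which hold 61 genes with the members included, of which 48 were found in the table and tested. Of these 20 were called higher and 6 lower with AOA, beside 26.2% and 26.8% of all tested genes, and the median log2 fold change was 0.18. In the list of proline and ornithine metabolism 4 of 9 genes rose and 1 fell. Oat led, followed by Pycrl, by Pepd, a peptidase that frees proline from dipeptides, which rose by 0.60 on the log2 scale (adjusted p = 0.00561 by edgeR), and by Nadk2, the mitochondrial NAD kinase, at 0.40 (adjusted p = 0.0464 by edgeR), a call lost with the replicate block. Prodh, the first enzyme of proline breakdown, had a log2 fold change of -1.02 that missed the threshold (adjusted p = 0.0610 by edgeR). It had only 7 to 16 counts per library, and its adjusted p was 0.0963 with the replicate block in edgeR. Nadk2 and Prodh were named after their values had been seen. Of the carriers across the inner mitochondrial membrane 2 of 4 rose. Slc25a15, which exchanges ornithine and so feeds Oat, had a log2 fold change of 1.16 (adjusted p = 0.00115 by edgeR). Slc25a13, which exchanges aspartate for glutamate, had one of 0.84 (adjusted p = 0.0403 by edgeR), a call that was lost without any single library except vehicle replicate 2 (log2 fold changes of 0.63 to 0.89, adjusted p of 0.0689 to 0.122, against 1.28 and 0.00113 without that library).

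**Figure D4:**
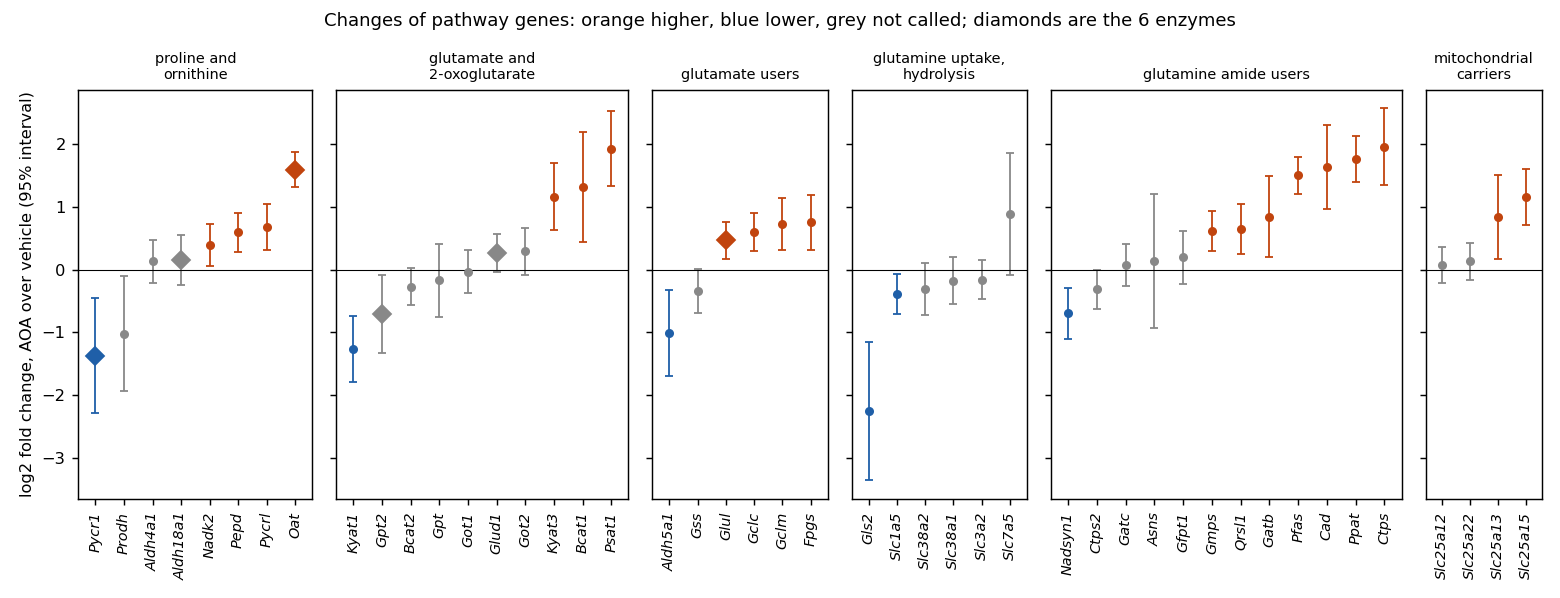
Log2 fold change of AOA over vehicle with its 95% interval (vertical axis) for genes of 6 pathway lists that are reported here, in orange where called higher, blue where called lower and grey where not called, with diamonds for the 6 enzymes. Oat is the highest of the proline and ornithine genes and Pycr1 the lowest.

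Among enzymes that exchange glutamate and 2-oxoglutarate, 3 of 10 rose and 1 fell. Psat1, the transaminase of serine synthesis, had a log2 fold change of 1.93 (adjusted p = 3.83e-04 by edgeR), above that of Oat, and Kyat3 and Bcat1 had 1.17 and 1.32. Kyat1 fell by 1.27 on the log2 scale (adjusted p = 0.00181 by edgeR). The call of Bcat1, a transaminase of branched-chain amino acids, was lost without vehicle replicate 1, vehicle replicate 3 or AOA replicate 2 (log2 fold changes of 1.12, 1.08 and 1.10, adjusted p of 0.0627, 0.0540 and 0.0678), whereas without vehicle replicate 2 the log2 fold change was 2.02 (adjusted p = 1.94e-04). Of 10 PLP transaminases tested, with Oat and Gpt2 among them, 4 rose, 1 fell and 5 were not called, with a median log2 fold change of 0.13, beside 53.0% called among all tested genes.

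Of 6 tested genes in a list of glutamate users and of GABA breakdown downstream of them, 4 rose, Glul being one of them, and 1 fell. Among all tested genes 26.2% were called higher and 26.8% lower. Gclc and Gclm, the subunits of the ligase that starts glutathione synthesis, had log2 fold changes of 0.60 and 0.73, and Fpgs, which adds glutamate to folates, had 0.75 (adjusted p of at most 0.00956 by edgeR). Aldh5a1, which oxidises succinate semialdehyde in the breakdown of GABA, fell by 1.01 on the log2 scale (adjusted p = 0.0202 by edgeR), a call lost without vehicle replicate 3, AOA replicate 1 or AOA replicate 2 (log2 fold changes of -0.81, -0.87 and -1.03, adjusted p of 0.104, 0.0608 and 0.0566). Of 12 tested users of the amide nitrogen of glutamine, 7 rose and 1 fell, beside 26.2% and 26.8% of all tested genes. Ctps, Ppat and Cad, enzymes of pyrimidine and purine synthesis, rose by 1.96, 1.76 and 1.64 on the log2 scale (adjusted p of at most 0.00158 by edgeR). Nadsyn1, which makes NAD, fell by 0.70 on the log2 scale (adjusted p = 0.00985 by edgeR), a call lost without vehicle replicate 3 (log2 fold change -0.64, adjusted p = 0.0530).

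Among 7 tested genes of glutamine uptake and hydrolysis 2 fell and 5 were not called. The share that fell lies near the 26.8% of all tested genes called lower. Gls2, a mitochondrial glutaminase, had 13.8, 2.92 and 9.23 CPM in vehicle replicates 1, 2 and 3, and 1.75, 1.90 and 1.71 CPM in AOA replicates 1, 2 and 3. Its vehicle values were spread widely, with replicate 2 the lowest, and all lay above the AOA values. This was -2.26 on the log2 scale with a standard error of 0.49 (adjusted p = 0.00406 by edgeR). It was -1.74 without vehicle replicate 1 and -2.64 without vehicle replicate 2. Slc1a5, the glutamine importer, had a log2 fold change of -0.39 (adjusted p = 0.0412 by edgeR), but with the mouse as a replicate block its adjusted p was 0.0650 and without any single library it was at least 0.0596. With the block Slc7a5, a chain of the leucine and glutamine exchanger, passed (log2 fold change 1.08, adjusted p = 0.00853 by edgeR), against 0.88 and an adjusted p of 0.114 without it, and it is named here after its values had been seen.

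ATF4 is a stress-induced factor known to drive transcription of Aldh18a1 and Pycr1 as well as of serine synthesis genes, and a list of 15 genes, ATF4 itself and others it controls, was counted beside the enzymes. Of 12 tested 2 rose and 5 fell, with a median log2 fold change of -0.58, beside 53.0% called among all tested genes, 26.2% higher and 26.8% lower. With the replicate block Sesn2 rose too (log2 fold change 0.54, adjusted p = 0.0317 by edgeR, against 0.47 and 0.179 without it). The genes that rose were Phgdh and Psat1, enzymes of serine synthesis, at 1.22 and 1.93 on the log2 scale. Those that fell were Atf4, Trib3, Ddit3, Atf3 and Ddit4, stress-response genes with log2 fold changes of -1.03, -1.09, -2.31, -3.08 and -1.003. These genes and Sesn2 are named after their values had been seen. Pycr1 was also called lower, and Aldh18a1 was not called. Any part of ATF4 in the change of Pycr1 was not tested.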

How the data were processed

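RNA of 6 cultures, 3 with vehicle and 3 with AOA, was sequenced from stranded mRNA libraries. Paired-end reads were aligned with STAR by the authors, who deposited whole-number counts per gene for uniquely mapped reads, with the symbol, Entrez number and length of each. The submitters' processing notes also name bcl2fastq, featureCounts, DESeq2 and mm10. Versions, annotation, strand setting and any gene filter of that counting are unknown here. No per-sample column was left without a sample.

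Members and lists were chosen with earlier results of these data known. The analysis ran in R 4.3.3 with edgeR 4.0.16 (filterByExpr with a minimum count of 10, TMM, robust quasi-likelihood test, Benjamini-Hochberg over 11759 genes, threshold 0.05), without the mouse as a term. RPKM used the deposited lengths. P-values measure the spread between cultures. The steps were run on simulated data in which 200 genes were changed. That is far fewer than were called here, so the simulation does not test the scaling where most genes change. The alternatives were DESeq2 1.42.0, limma 3.58.1 (voom), 2 other scalings, 2 other filters, a replicate block for the mouse, omission of each library and a log2 fold change of at least 1. Libraries of one group differed beyond sampling noise (chi-square per gene of 10.2 to 72.3).

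The pairing comes from the labels, which number the donor mouse of every culture. Within a mouse, the departures of vehicle and AOA libraries from their group means had r of 0.0868, 0.189 and 0.194 over genes, which are no independent replicates. List genes are named by a rule that takes up to 3 called genes per direction and list with the largest log2 fold change. Some items, which count in their lists, are not reported here. For each member the rule adds the 3 genes with the highest Pearson r of log2 CPM (prior count 2) over the 6 libraries, among genes that average 10 CPM or more in one group. Gene positions are RefSeq's for GRCm38.p6 and overlaps GENCODE's for vM21.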

Additional observations from a re-analysis of the deposited data

How the results depend on the processing

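The direction of the change of all 6 enzymes held in each of the 76 fits that gave a value under the alternatives. Gpt2 and Pycr1 did not reach 10 CPM in 3 libraries and have no value under that filter. The call of Oat held in every alternative, with an adjusted p of at most 5.14e-04. With 1 library left out the log2 fold changes ranged from 1.55 to 1.69 for Oat, from 0.42 to 0.56 for Glul, from 0.23 to 0.34 for Glud1, from 0.08 to 0.35 for Aldh18a1, from -0.84 to -0.36 for Gpt2 and from -1.79 to -1.16 for Pycr1. The calls that changed were those of Glul and Pycr1, lost, and of Glud1, gained, without the libraries named above. The cause was not tested, and each of these fits has fewer samples. For the ratios these ranges were -1.13 to -0.66 for Gpt2 over Glud1, -1.55 to -1.29 for Aldh18a1 over Oat and -1.88 to -1.28 for Pycr1 over Aldh18a1. Within each mouse, as a replicate block, the ratios gave the same differences with an exact p of 0.25, the smallest that sign flips over 3 mice allow. The replicate block changed no call among the 6 enzymes, and Gpt2 had an adjusted p of 0.0510 with it. Omitting 1 library gave 4952 to 6796 called genes and 18 to 28 called list genes, and the block gave 6292 and 25. A minimum log2 fold change of 1 in size left 3081 genes and 13 list genes by construction. The list genes named by the rule and Gpt, 19 in all, had the direction given above in all 242 fits that gave a value. Of the 6 enzymes Pycr1 has the fewest counts, 9 to 36 per library.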

Other observations

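The genes whose log2 CPM followed each enzyme most closely over the 6 libraries are given as a description, out of 9114 or 9115 genes compared, since the points share libraries and fall into 2 groups of 3. For Oat they were Ptma, Rrm2 and Asf1b (Pearson r of 0.9997, 0.9997 and 0.9995), with log2 fold changes of 1.63, 3.34 and 3.22. Rrm2 encodes a subunit of ribonucleotide reductase and Asf1b a chaperone of histones, while Ptma has near-identical pseudogenes that could share its reads. For Glul they were Ptpn14, Zbed3 and Rrp7a (0.9973, 0.9949 and 0.9924). For Glud1 they were Klhdc10, Gmps and Ube2j1 (0.9888, 0.9879 and 0.9861), of which Gmps makes GMP with the amide nitrogen of glutamine.

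For Gpt2 the closest genes were Lilrb4a, Bspry and Tyrobp (0.9929, 0.9929 and 0.9896), with log2 fold changes of -1.30, -1.72 and -3.04. Tyrobp encodes an adapter of NK and myeloid receptors. Of the 2 NK markers found in the table, Klrb1c had 41.7, 111 and 20.1 CPM in vehicle replicates 1, 2 and 3, and 6.99, 11.05 and 3.38 CPM in AOA replicates 1, 2 and 3, and makes up nearly all of their sum. Ncr1, too low to be tested, had 0, 37 and 0 counts with vehicle and 5, 11 and 3 with AOA, higher with AOA in mice 1 and 3. The part of such cells in the level of Gpt2 was not tested. For Aldh18a1 the closest genes were Srcap, Nedd4 and Pgghg (0.9936, 0.9904 and 0.9886), and for Pycr1 they were Rhbdd1, Gfm2 and Slfn8 (0.9931, 0.9930 and 0.9778).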
